A study of Mus musculus with 20 samples.

Results

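The genes described here are 7 markers of dentate granule cells: Prox1, Dsp, Tdo2, Trpc6, Stxbp6, C1ql2 and Calb1. They were found by symbol in the tables of all 20 libraries, where they are 7 of 13256 genes, and all 7 were among the 13174 genes tested. Each marker was above 1 FPKM in every library, which does not by itself tie its RNA to granule cells. The libraries are RNA sequencing of mouse hippocampus in 4 groups of 5: female Fmr1 KO, female C57 (WT), male Fmr1 KO and male C57 (WT). Fmr1 encodes the RNA-binding protein FMRP. The sample titles write KO where the genotype entry writes knockdown. All 20 titles also carry the term Con, whose meaning the titles do not give. The labels name no agent and no age, and do not say that the libraries of a group came from separate animals, so a p-value here reflects library-to-library spread, which may be technical. Sex differences are named in the series title, and KO was therefore set against WT within each sex.

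The dentate gyrus is the entry stage of the hippocampal circuit: its granule cells receive cortical input and pass it to CA3 pyramidal cells through the mossy fibres. It is also a place where neurons are added in adult mice. The transcription factor Prox1 marks granule cells among hippocampal neurons, and the other 6 genes have various roles and are used as their markers, though not all are limited to them. In bulk tissue, fewer granule cells and less RNA per granule cell cannot be told apart.

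The markers were chosen by their lower FPKM in female KO than in female WT. The female differences below are therefore a description, with no test. The male libraries had no part in that comparison, and the markers were tested there only.

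Fmr1 averaged 3.32 ± 0.327 FPKM in female KO and 10.6 ± 0.558 in female WT (SD, n = 5 each), and 3.56 ± 0.187 FPKM in male KO against 11.4 ± 0.527 in male WT (SD, n = 5 each). FPKM are fragments scaled to gene length and to the size of the library. Between 12766 and 12899 genes reached 0.5 FPKM in a library, and without counts the sequencing depth is unknown. Some libraries stood apart. Ttr, which choroid plexus expresses strongly, exceeded 500 FPKM in female KO replicates 4 and 5, female WT replicate 4 and male KO replicate 2. The pituitary hormone gene Prl exceeded 4 FPKM in female KO replicates 2, 3 and 4 and in no other library.

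Promoter sequences of 6 of the 7 genes were at hand from RefSeq (GRCm38.p6), and Calb1 was not among them. They run from 250 bases before to 50 bases after a start listed in RefSeq. That start need not be the upstream end of the gene as deposited, which is at 190170714 for Prox1, 81976202 for Tdo2 and 45074709 for Stxbp6. The Tdo2 window lies wholly within the deposited gene, and the Prox1 window lies wholly upstream of it. Capitals mark E-boxes (CANNTG, the letters read by NeuroD-type and other basic helix-loop-helix factors) and the TATA motif TATAAA on either strand. Prox1 (chr1:190170778-190171077, minus strand, the more upstream of 2 listed starts), Stxbp6 (chr12:45074434-45074733, minus strand) and C1ql2 (chr1:120340332-120340631, plus strand) are shown because they hold the same form of E-box, CACTTG or its reverse complement. Tdo2 (chr3:81975679-81975978, minus strand) is shown as 1 of the 2 markers whose female groups did not overlap.
Prox1: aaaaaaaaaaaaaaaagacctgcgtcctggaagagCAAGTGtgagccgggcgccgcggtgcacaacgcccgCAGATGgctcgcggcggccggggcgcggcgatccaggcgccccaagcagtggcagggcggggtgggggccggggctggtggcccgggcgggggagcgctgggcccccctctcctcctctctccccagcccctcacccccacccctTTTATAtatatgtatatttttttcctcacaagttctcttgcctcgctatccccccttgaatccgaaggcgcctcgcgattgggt
Stxbp6: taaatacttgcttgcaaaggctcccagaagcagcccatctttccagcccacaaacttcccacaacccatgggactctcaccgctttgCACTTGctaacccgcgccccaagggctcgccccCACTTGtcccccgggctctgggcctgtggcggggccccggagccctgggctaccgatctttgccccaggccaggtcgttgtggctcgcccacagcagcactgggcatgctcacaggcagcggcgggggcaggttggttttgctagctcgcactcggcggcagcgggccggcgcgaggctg
C1ql2: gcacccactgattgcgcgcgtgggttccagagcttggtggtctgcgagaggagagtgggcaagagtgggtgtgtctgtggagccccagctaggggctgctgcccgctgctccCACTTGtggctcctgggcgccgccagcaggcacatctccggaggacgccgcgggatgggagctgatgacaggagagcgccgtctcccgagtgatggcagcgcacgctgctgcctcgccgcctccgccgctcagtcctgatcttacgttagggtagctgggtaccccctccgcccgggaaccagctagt
Tdo2: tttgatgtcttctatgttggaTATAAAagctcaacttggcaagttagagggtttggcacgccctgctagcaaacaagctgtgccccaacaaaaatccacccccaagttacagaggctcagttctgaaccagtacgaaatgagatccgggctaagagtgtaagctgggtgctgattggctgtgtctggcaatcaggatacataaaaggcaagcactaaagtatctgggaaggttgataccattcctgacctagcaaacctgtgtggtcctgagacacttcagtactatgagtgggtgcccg
An E-box was found in 4 of the 6 promoters, against 72.3% of 32851 promoters of the same length. TATAAA was found in 2 of 6, against 13.6%. The form CACTTG, a subset of the E-boxes chosen after the sequences were seen, was found in 3 of 6, against 13.6%. Counted from the RefSeq start, it begins at base -138 in C1ql2 and at bases -163 and -130 in Stxbp6. In Prox1 its reverse complement begins at base -215. Both Stxbp6 matches lie within the gene as deposited, whose upstream end is at 45074709. The cAMP response half-site TGACG was found in the Trpc6 promoter alone of the 6, against 20.8% of promoters. These are matches of letters and not measured binding sites.

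The order of the levels was much the same in every group. Over all 20 libraries Calb1 averaged 33.9 FPKM, C1ql2 27.2, Stxbp6 24.1, Prox1 16.4, Dsp 4.94, Trpc6 4.21 and Tdo2 2.12. Calb1 stood above 91.2% of tested genes by mean FPKM and Tdo2 above 23.5%. The ranges of Stxbp6 and Prox1 did not overlap within any group, nor did those of Prox1 and Dsp or of Trpc6 and Tdo2. The ranges of C1ql2 and Stxbp6 overlapped in all 4 groups: C1ql2 was the higher of the pair in 5 of 5 female KO and 5 of 5 female WT libraries, but in 2 of 5 male KO and 2 of 5 male WT libraries. The ranges of Calb1 and C1ql2 overlapped in female WT only. Dsp exceeded Trpc6 in 1 of 5 female KO and 3 of 5 female WT libraries and in all 10 male libraries.

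**Figure D1:**
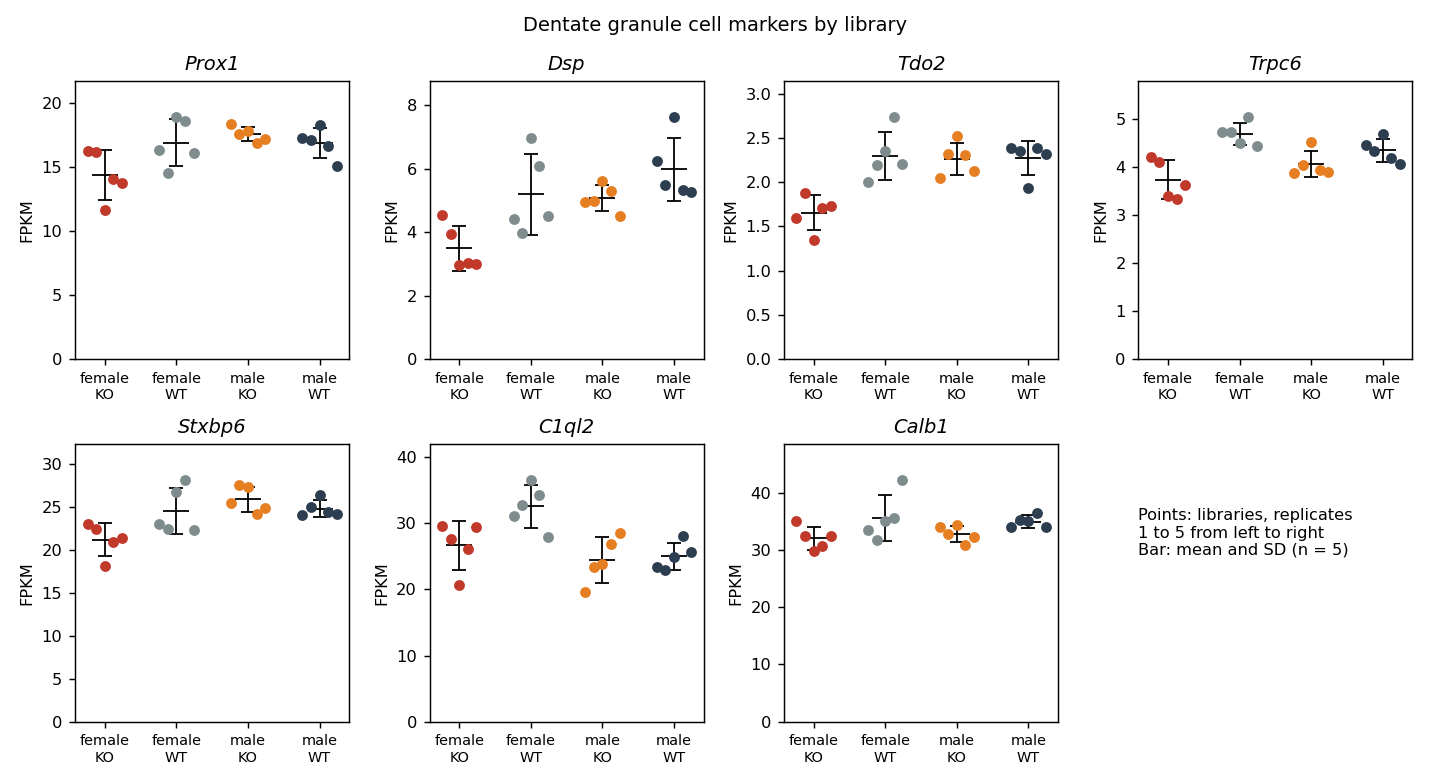
FPKM of each marker in each library, by group, with the mean and SD of 5 libraries; each vertical axis starts at 0. In females the KO points of Tdo2 (1.35 to 1.88) and Trpc6 (3.34 to 4.22) lie wholly below the WT points, and in males the KO and WT ranges of every marker overlap.

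Prox1 (ENSMUSG00000010175.13, mm10, chromosome 1, 190118035 to 190170714, minus strand) encodes the homeobox transcription factor that specifies and maintains granule cell identity. It was at 16.2, 16.2, 11.6, 14.1 and 13.8 FPKM in female KO replicates 1 to 5, against 16.3, 14.5, 18.9, 18.6 and 16.1 in female WT. Female KO replicates 1 and 2 lay within the WT range and the other 3 below it. The female difference, KO minus WT, was -0.22 ± 0.079 on the log2(FPKM + 1) scale (SE), a scale that understates the change of low genes. Male KO replicates 1 to 5 had 18.3, 17.6, 17.8, 16.9 and 17.2 FPKM, against 17.3, 17.1, 18.3, 16.6 and 15.1 in male WT. The male groups overlapped, with a difference of 0.06 ± 0.079 (SE; 95% interval -0.11 to 0.22; limma adjusted p = 0.905). Prox1 overlaps 2 antisense genes on the other strand, and whether the authors' processing used strand is not stated in the labels.

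Dsp (ENSMUSG00000054889.10, chromosome 13, 38151294 to 38198577, plus strand) encodes desmoplakin, which ties intermediate filaments to desmosomes in epithelia and heart and which in the hippocampus marks granule cells. It had the largest female difference of the 7, and the widest spread in female WT relative to its level. Female KO replicates 1 to 5 had 4.52, 3.94, 2.97, 3.03 and 2.999 FPKM, against 4.42, 3.98, 6.97, 6.09 and 4.50 in female WT. The difference was -0.45 ± 0.13 (SE), and 4 of 5 KO libraries were below every WT library, while KO replicate 1 lay within the WT range. In males Dsp had the lowest estimate of the 7, with 4.96, 4.99, 5.62, 5.28 and 4.50 FPKM in male KO against 6.25, 5.47, 7.62, 5.32 and 5.26 in male WT. Of the male KO libraries, 3 were below all WT libraries, and the difference of -0.19 ± 0.13 (SE; 95% interval -0.46 to 0.07) did not pass (limma adjusted p = 0.721). Without male WT replicate 3, the highest, it was -0.12 ± 0.13 (SE).

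Tdo2 (ENSMUSG00000028011.16, chromosome 3, 81957090 to 81976202, minus strand) encodes tryptophan 2,3-dioxygenase, an enzyme of the liver that opens the kynurenine pathway of tryptophan breakdown and whose mRNA in the hippocampus marks granule cells. It was the least abundant of the 7. Female KO replicates 1 to 5 had 1.60, 1.88, 1.35, 1.71 and 1.73 FPKM, against 2.004, 2.19, 2.35, 2.74 and 2.20 in female WT. The female groups did not overlap, and the KO mean was 72.0% of the WT mean (log2 difference -0.31 ± 0.065, SE). In males the levels were 2.05, 2.32, 2.52, 2.31 and 2.13 FPKM in KO against 2.39, 2.35, 1.93, 2.38 and 2.32 in WT. The male difference was the smallest of the 7, at -0.01 ± 0.065 (SE; 95% interval -0.14 to 0.13; limma adjusted p = 0.994), and its sign changed with rescaling. Male WT replicate 3 was the low library of its group.

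Trpc6 (ENSMUSG00000031997.9, chromosome 9, 8544142 to 8680741, plus strand) encodes a calcium-permeable cation channel opened by diacylglycerol. In female KO replicates 1 to 5 it was at 4.22, 4.10, 3.40, 3.34 and 3.63 FPKM, against 4.72, 4.73, 4.51, 5.04 and 4.44 in female WT. The groups did not overlap, and the difference was -0.27 ± 0.055 (SE). Male KO libraries had 3.88, 4.05, 4.53, 3.94 and 3.91 FPKM, against 4.47, 4.33, 4.68, 4.20 and 4.07 in male WT. In males 4 of 5 KO libraries were below all WT libraries and KO replicate 3 was above 4 of the 5 WT libraries. The male difference of -0.08 ± 0.055 (SE; 95% interval -0.20 to 0.04) did not pass (limma adjusted p = 0.740).

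Stxbp6 (ENSMUSG00000046314.16, chromosome 12, 44852484 to 45074709, minus strand) encodes amisyn, a syntaxin-binding protein that restrains SNARE-driven membrane fusion. Its 5 female KO libraries had 23.0, 22.5, 18.1, 20.96 and 21.4 FPKM, against 23.0, 22.5, 26.7, 28.1 and 22.3 in female WT. KO replicates 1 and 2 lay within the WT range and the other 3 below it, and WT replicates 3 and 4 were the high libraries of their group. The female difference was -0.20 ± 0.067 (SE). In males it was 0.06 ± 0.067 (SE; 95% interval -0.08 to 0.20; limma adjusted p = 0.880), from 25.5, 27.6, 27.3, 24.2 and 24.8 FPKM in KO against 24.0, 25.0, 26.4, 24.5 and 24.2 in WT.

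C1ql2 (ENSMUSG00000036907.9, chromosome 1, 120340582 to 120343174, plus strand) encodes a secreted C1q-like protein that granule cells release at mossy fibre synapses, where it binds kainate receptors and neurexin 3. Female KO libraries had 29.6, 27.6, 20.6, 26.1 and 29.5 FPKM, against 31.2, 32.8, 36.6, 34.4 and 27.9 in female WT. KO replicate 3 was the lowest, and KO replicates 1 and 5 lay within the WT range (log2 difference -0.28 ± 0.10, SE). In males the levels were 19.6, 23.4, 23.9, 26.8 and 28.6 FPKM in KO, against 23.4, 22.9, 24.9, 28.1 and 25.6 in WT, and KO libraries lay both below and above the WT range. The male difference was -0.04 ± 0.10 (SE; 95% interval -0.25 to 0.17; limma adjusted p = 0.955). C1ql2 was the marker whose WT mean differed most in value between the sexes, at 25.0 ± 2.06 FPKM in male WT and 32.6 ± 3.27 in female WT (SD, n = 5 each), a comparison left untested because the female WT libraries had part in choosing the genes.

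Calb1 (ENSMUSG00000028222.2, chromosome 4, 15881264 to 15908064, plus strand) encodes calbindin, a calcium buffer of mature granule cells that CA1 pyramidal cells and some interneurons also express. Female KO libraries had 35.0, 32.4, 29.8, 30.6 and 32.5 FPKM, against 33.5, 31.7, 35.0, 35.6 and 42.2 in female WT. It had the smallest female difference of the 7 (-0.14 ± 0.058, SE), and WT replicate 5 was the high library. Without that library the female difference was -0.08 ± 0.046, and with the GC trend taken out -0.08 ± 0.051 (SE). Male KO libraries had 34.1, 32.8, 34.3, 30.9 and 32.3 FPKM, against 34.0, 35.3, 35.1, 36.5 and 33.9 in male WT. Of the male KO libraries 3 were below all WT libraries, and the difference of -0.09 ± 0.058 (SE; 95% interval -0.21 to 0.03) did not pass (limma adjusted p = 0.729).

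**Figure D2:**
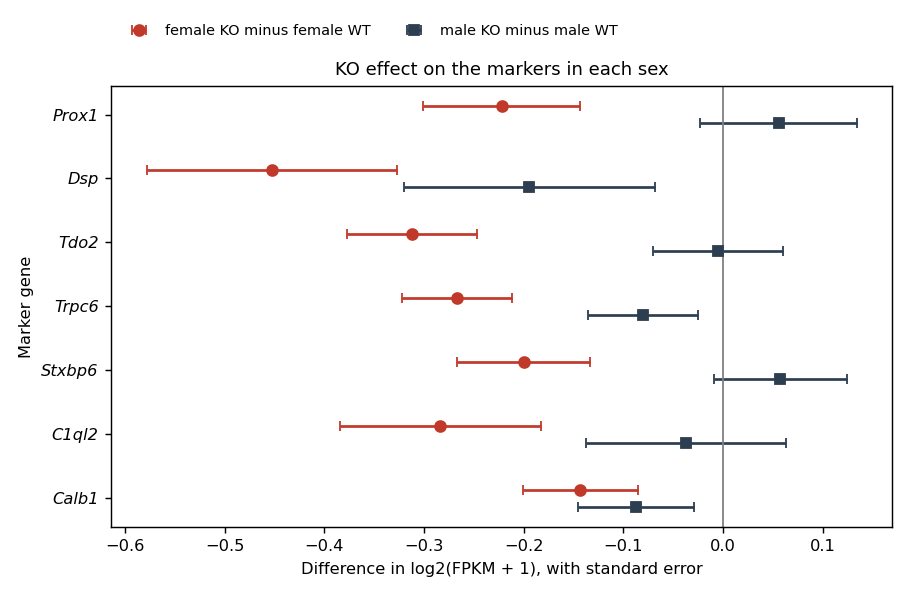
Difference in log2(FPKM + 1), KO minus WT, of each marker in females (circles) and males (squares), with standard errors from the limma fit. The female values run from -0.45 (Dsp) to -0.14 (Calb1) and the male values from -0.19 (Dsp) to 0.06 (Stxbp6).

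With limma over all 4 groups, 0 of the 7 markers passed an adjusted p of 0.05 in males, and 0 had an unadjusted p under 0.05. Over all tested genes, 0.0455% passed in males (6 of 13174) and 1145 had an unadjusted p under 0.05, so the count of markers does not stand apart from the background. The male SE draw on the spread of all 4 groups. In a fit of only the male groups the SE was smaller for every marker. Calb1 then had -0.09 ± 0.038 and Dsp -0.19 ± 0.090 (SE). In that fit 0 markers passed the adjusted threshold, and unadjusted p-values were not counted. The median male difference of the markers was -0.04, with 5 of 7 below 0, against a median of 0.00 over all tested genes, of which 50.8% were below 0. In females the median was -0.27 with all 7 below 0, against 0.01 and 48.0% over all tested genes, and the choice of the markers fixes that direction. Of the 7, 2 had female groups that did not overlap; over all tested genes 5.99% did not overlap in females, 2.82% with KO the lower, and 3.32% passed limma in females, 1.53% lower and 1.8% higher in KO. In males 0 of 7 had groups that did not overlap, against 2% of all tested genes, 1.4% with KO the lower. Whether the KO effect on these genes differed between the sexes was not tested, because the female libraries chose them.

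The female KO libraries were not alike. As a percentage of the female WT mean, the median over the 7 markers was 90.8% in replicate 1, 87.5% in replicate 2, 68.7% in replicate 3, 80.0% in replicate 4 and 81.5% in replicate 5. Replicates 3 and 4 were below every female WT library for all 7 markers, replicate 5 for 5, replicate 2 for 4 and replicate 1 for 2. Replicate 3 held the lowest value of all 20 libraries for 5 of the 7 genes. In male KO the same median ran from 90.1% (replicate 1) to 104% (replicate 3) of the male WT mean.

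**Figure D3:**
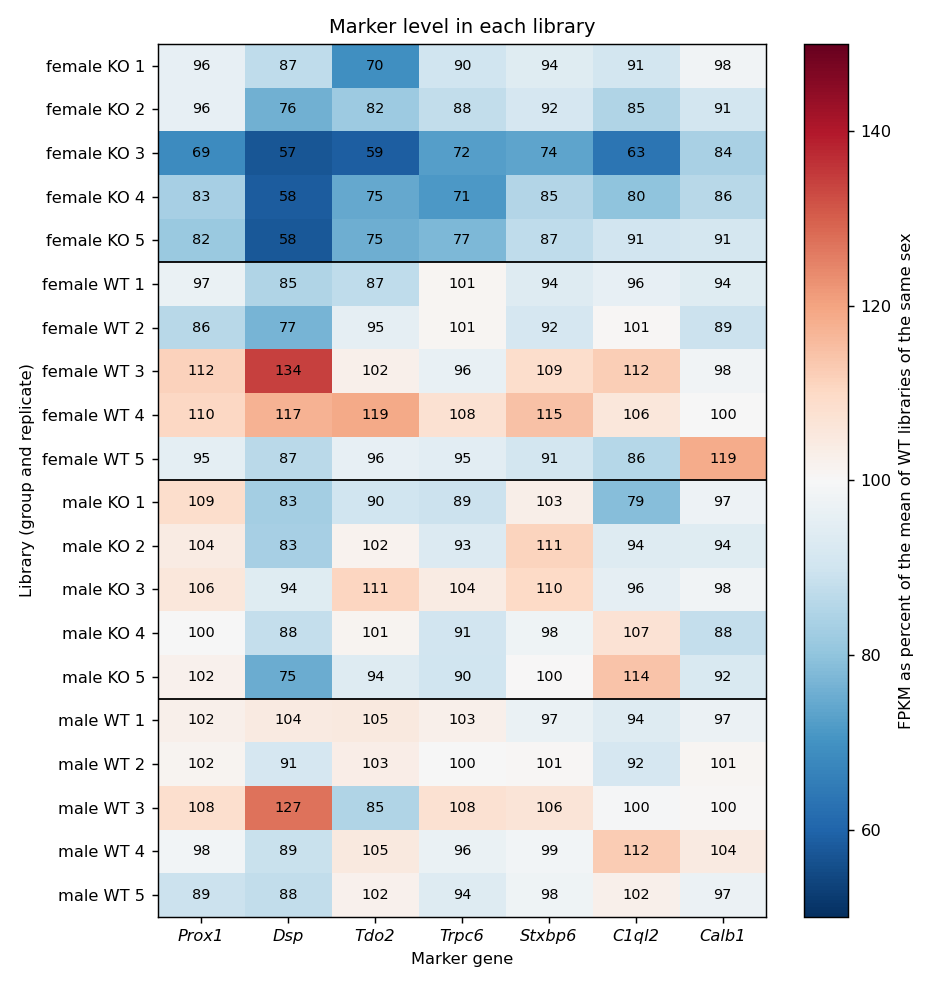
Level of each marker in each library as a percentage of the mean of the WT libraries of the same sex. Female KO replicate 3 has the lowest value of every marker but Trpc6, with 57.2% for Dsp, and replicate 4 has the lowest Trpc6 (71.3%), while the medians of female WT replicates 3 and 4 are 109% and 110.2%.

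Libraries with high RNA of choroid plexus or pituitary genes overlapped in part with those low in the markers. Female KO replicate 3 had 42.2 FPKM of Prl and 48.5 of Ttr, replicate 4 had 22.1 of Prl and 1097 of Ttr, and replicate 5 had 0.191 of Prl and 1461 of Ttr. Female WT replicate 4, with 878 FPKM of Ttr, had the highest Tdo2, Trpc6 and Stxbp6 of the 20 libraries. The summed level of the 8 choroid plexus genes ran from 43.4 to 1536 FPKM in female KO and from 12.6 to 918 in female WT, and that of 3 pituitary genes from 0.508 to 129 and from 0.128 to 4.52. In females all 8 choroid plexus and both tested pituitary genes had differences above 0, with list medians of 0.71 and 1.75. Their levels varied widely between libraries, and with limma 0 of 8 and 0 of 2 passed in either sex. The smallest female limma adjusted p were those of Folr1 (0.380), Kcnj13 (0.407), Gh (0.124) and Pomc (0.148). The female differences of Gh and Pomc were 2.34 ± 0.83 and 1.16 ± 0.44 (SE). Without the Ttr libraries the median female difference of the markers was -0.19, and Dsp had -0.30 ± 0.15 and Tdo2 -0.29 ± 0.076 (SE). Without the Prl libraries, which leaves 2 female KO libraries, the median was -0.16, and C1ql2 had -0.13 ± 0.12, Calb1 -0.07 ± 0.077 and Tdo2 -0.30 ± 0.082 (SE). Tdo2 kept its size under both, while C1ql2 had -0.31 ± 0.13 without the Ttr libraries, and Dsp -0.37 ± 0.17 and Stxbp6 -0.13 ± 0.081 without the Prl libraries (SE). Over the 20 libraries with group means removed, the mean of the markers had a Pearson correlation of -0.66 with Pomc and -0.55 with Gh. Both genes were near the floor outside female KO. Median Gh was 0 FPKM in female WT and male KO and 0.10 in male WT, and Pomc reached at most 0.701 there. In female KO they reached 69.9 (Gh) and 17.2 FPKM (Pomc). These correlations can therefore rest on few libraries, and they were not recomputed with single libraries left out. The marker mean had 0.10 with Ttr and 0.13 with the mean of 7 choroid plexus genes. The source of the choroid plexus and pituitary RNA is not given by the labels, and its part in the marker differences was not tested.

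After the mean of each group was removed, the markers tended to vary together over libraries. Over 20 libraries, 20 of the 21 pairs had a Pearson correlation above 0 (median 0.40), against a median of 0.00 over all pairs of the 11800 other tested genes with a mean of at least 1 FPKM. The closest pairs were Prox1 with Stxbp6 (0.85), Prox1 with Dsp (0.82) and Dsp with Stxbp6 (0.76). C1ql2 with Calb1 had -0.06. In the 10 female libraries the median was 0.59 and in the 10 male libraries 0.10, where Dsp with Trpc6 was the closest pair (0.80) and Prox1 with C1ql2 the farthest (-0.48). Prox1, Dsp, Trpc6 and Stxbp6 were positively correlated with each other in both sexes, whereas C1ql2 was positively correlated with the other markers in females and with Tdo2 alone in males. These correlations are descriptions over libraries that share preparation and dissection. Without female KO replicate 3 the median over the remaining libraries was 0.21, and the male median ran from -0.16 without male KO replicate 3 to 0.30 without male WT replicate 3, with 0.04 without male KO replicate 5, 0.05 without male KO replicate 1 and 0.16 without male WT replicate 4.

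**Figure D4:**
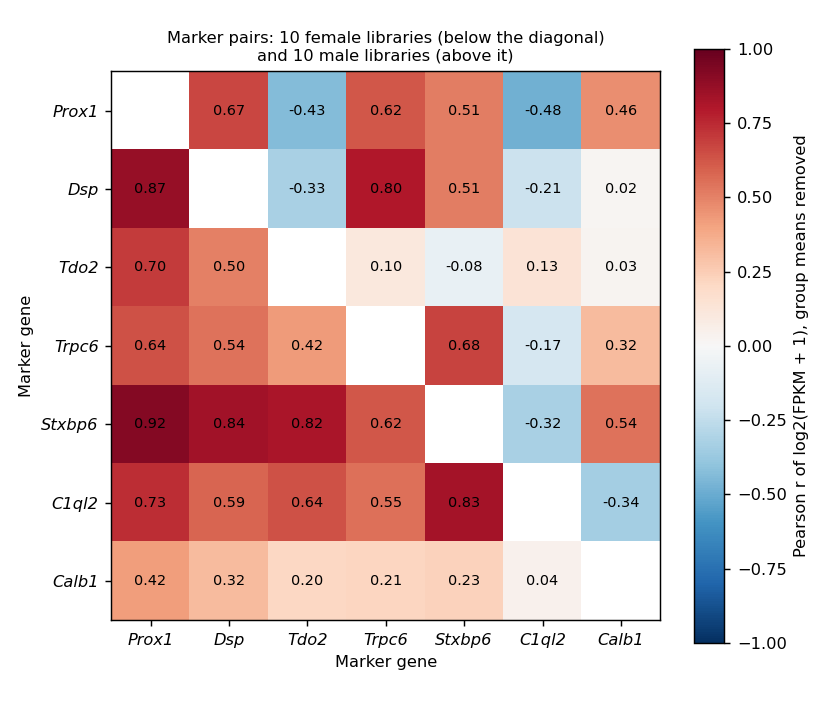
Pearson correlation between markers of log2(FPKM + 1) after removal of group means, in 10 female libraries (below the diagonal) and 10 male libraries (above it). Every female pair is above 0 (0.04 to 0.92), and the male pairs of C1ql2 with Prox1, Dsp, Trpc6, Stxbp6 and Calb1 are below 0.

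The genes most like the mean of the 7 markers, over the 20 libraries with group means removed and among 11800 genes, were led by Kctd4, of the potassium channel tetramerisation domain family (r = 0.90). Next came Sf3b3, a splicing factor subunit (0.82), the lactase gene Lct (0.79), the diacylglycerol kinase gene Dgkh (0.78) and the transcription factor gene Rfx3 (0.78). Cbx1, Btbd3, Cpsf3, Dclk3 and Anxa11 followed with 0.76 to 0.75. Cbx1, of the heterochromatin protein 1 family, had a female difference of 0.30, opposite in sign to the markers, whereas Kctd4 had -0.24. Lct and Rfx3 were also on the list of other granule cell genes, on which Dock10 ranked 43 (0.66) and Maml2 65 (0.63). The most opposed genes were Tspan9 (-0.86), Arnt2 (-0.80), Ntm (-0.79), Ldb2 (-0.75) and Sstr3 (-0.75). For single markers, Kctd4 was the gene most like Prox1 (0.85) and Stxbp6 (0.86), Lyst that most like Dsp (0.88), Spata13 that most like Trpc6 (0.80), Gpc4 that most like C1ql2 (0.80) and Ccdc22 that most like Calb1 (0.81). For Tdo2 it was 1190005I06Rik (0.76). The next most like were Dgkh and Lyst for Prox1 (both 0.79 to 0.80), Sphkap and Rasal2 for Dsp (0.82 each), Lsm5 and Btbd3 for Tdo2 (0.76 each), Spcs3 (0.79) and Heatr6 (0.78) for Trpc6, Rfx3 (0.84) and Cbx1 (0.82) for Stxbp6, Hps5 (0.79) and Sf3a2 (0.78) for C1ql2, and Cnep1r1 (0.78) and Nipa2 (0.72) for Calb1. In males none of the 15 genes most or least like the mean passed limma (lowest adjusted p = 0.508, Dclk3). The order of likeness was not recomputed within each sex or with single libraries left out. It may draw mostly on the female libraries, where the median correlation of the marker pairs was 0.59, against 0.10 in males.

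Of 10 other genes of granule cells, all had female differences below 0 (median -0.13), and 2 passed limma in females. Dock10 fell to 4.50 ± 0.677 FPKM in female KO, against 6.23 ± 0.721 in female WT (SD, n = 5 each; log2 -0.40 ± 0.081, SE; limma adjusted p = 0.0149). Rfx3, a transcription factor of ciliary genes, fell to 11.3 ± 0.852 FPKM in female KO, against 13.6 ± 1.30 in female WT (SD, n = 5 each; log2 -0.24 ± 0.060; limma adjusted p = 0.0349). Lct had -0.36 (limma adjusted p = 0.120) and C1ql3, a paralog of C1ql2 that is not limited to granule cells, 0.00. In males 0 of the 10 passed, 6 were below 0 and the median was -0.02. Since such genes vary with the markers across libraries, their female values are not independent of the choice of the 7. Of 6 genes of newborn granule neurons, 0 passed in either sex: the microtubule protein gene Dcx had -0.27 in females (limma adjusted p = 0.0636) and the transcription factor gene Neurod1 -0.20 (adjusted p = 0.179).

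Lists of other hippocampal cell types were measured in the same fit. Of 10 CA3 and CA2 pyramidal genes, 0 passed in females (median -0.09, 9 below 0), with Pcp4 at -0.15 (limma adjusted p = 0.115) and Cpne4 at -0.13 (adjusted p = 0.123) closest. Of 8 CA1 genes (female median 0.06, 3 below 0), Fibcd1, an acetyl-binding receptor, rose to 27.4 ± 2.31 FPKM in female KO, against 22.2 ± 1.54 in female WT (SD, n = 5 each; log2 0.29; limma adjusted p = 0.0152). In males the CA1 median was -0.16 with 7 of 8 below 0, and 0 passed; Mpped1 had the lowest value, at 19.0 ± 16.4 FPKM in male KO and 35.6 ± 6.72 in male WT (SD, n = 5 each; limma adjusted p = 0.556), with KO libraries spread from 5.38 to 37.1 FPKM. Of 8 oligodendrocyte genes, all below 0 in both sexes (medians -0.16 and -0.16), Opalin fell in females (-0.47; limma adjusted p = 0.0186). The astrocyte list had medians of 0.06 in females and 0.06 in males with 0 of 8 passing. Its smallest female p-values were those of Gja1 (0.18, limma adjusted p = 0.309) and Aldoc (0.09, adjusted p = 0.330). Of 4 mossy cell genes 0 passed (Nmb 0.31, limma adjusted p = 0.261; Calcrl -0.09, adjusted p = 0.523), and of 6 thalamus genes Prkcd fell in females (-0.46; limma adjusted p = 0.0424).

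**Figure D5:**
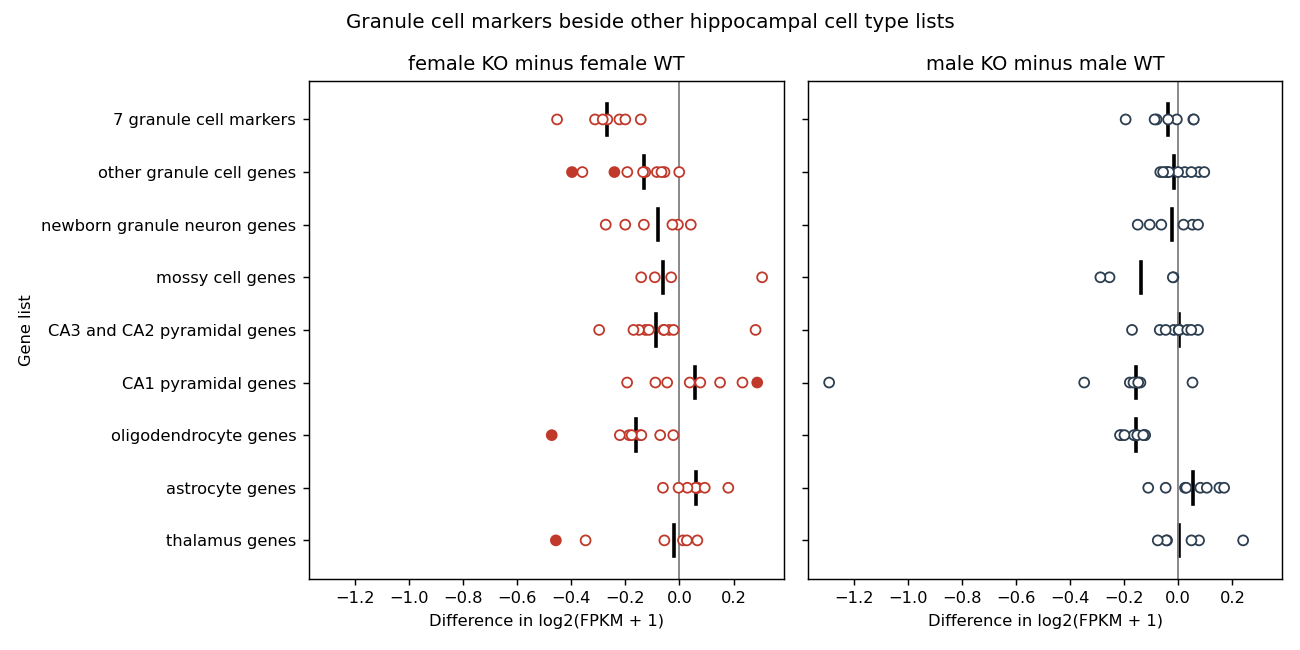
Difference in log2(FPKM + 1), KO minus WT, of each gene of 9 lists in females (left) and males (right); filled points passed limma at an adjusted p of 0.05, black bars are list medians, and the 7 markers are drawn open in females because they were not tested there. The median of the 7 markers is the lowest in females (-0.27), which their choice fixes, and is -0.04 in males.

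The families and pathways of the markers were measured beside them. Of the kynurenine pathway, 3 genes besides Tdo2 were tested and 0 passed: Kyat3 had -0.09 in females (limma adjusted p = 0.391) and Got2 0.06 (adjusted p = 0.454). Of 5 desmosome genes, Pkp4, a plakophilin-related armadillo protein of cell junctions, fell in females (35.8 ± 2.05 FPKM in KO against 42.7 ± 2.49 in WT, SD, n = 5 each; log2 -0.25; limma adjusted p = 0.0137) and had -0.22 in males (adjusted p = 0.106), while plakoglobin (Jup) had 0.12 and plakophilin 2 (Pkp2) 0.12 in females, with 0 passing in males. The other 5 TRPC channel genes had a female median of -0.10 and 0 passed, with Trpc4 (-0.12, limma adjusted p = 0.229) and Trpc5 (-0.16, adjusted p = 0.444) the closest. Of 10 syntaxin-binding and SNARE genes the synaptobrevin gene Vamp2 rose in females (0.14; limma adjusted p = 0.0334). Of 9 tested C1q-like genes and receptors, Nrxn3, which encodes neurexin 3, fell in females (-0.18; limma adjusted p = 0.0152) and had -0.15 in males (adjusted p = 0.157). Of 6 calcium-binding protein genes, secretagogin (Scgn) fell to 0.459 ± 0.194 FPKM in female KO, against 0.984 ± 0.137 in female WT (SD, n = 5 each). Its log2 difference was -0.45 in females (limma adjusted p = 0.0178) and -0.30 in males (adjusted p = 0.334). Scgn is near the floor, and its female KO mean lay below the 0.5 FPKM of the filter.

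In all, 9 of 105 related genes passed limma in females (8.57%, 2 higher and 7 lower in KO, against 3.32% of all tested genes) and 0 in males, where 0.0455% of all tested genes passed. The lists were chosen with earlier results of these data known, so the female shares do not test them. Like Dock10 and Rfx3, Prkcd (r = 0.52) varied with the marker mean, and Fibcd1 (-0.61) and Vamp2 (-0.55) varied against it. Their female calls are not independent of the choice of the 7. Opalin had 0.17, Nrxn3 -0.28 and Pkp4 0.06, and Scgn, with a mean below 1 FPKM, was not ranked. All 9 female calls ended in a fit of only the female groups (adjusted p 0.0504 to 0.104) and without the Prl libraries (0.117 to 0.431), and all but that of Pkp4 (0.0485) ended without the Ttr libraries. Single libraries ended 4 of them. Scgn was lost without female KO replicate 3 (limma adjusted p = 0.0515). Vamp2 was lost without female KO replicate 2, 3, 4 or 5 or female WT replicate 3, 4 or 5 (0.0577 to 0.0874). Rfx3 was lost without female KO replicate 2, 3, 4 or 5 or female WT replicate 3 or 4 (0.0559 to 0.0964). Prkcd was lost without female KO replicate 3, 4 or 5, female WT replicate 1, 3, 4 or 5, male KO replicate 3 or 4, or male WT replicate 1 or 5 (0.0506 to 0.114).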

How the data were processed

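RNA of mouse hippocampus was sequenced in 20 libraries, grouped by the sample titles. Per the labels' protocols, RNA was extracted with TRIzol and 1.3 µg entered a SMARTER mRNA-seq kit. Each library's table gives FPKM for every gene as the authors deposited it. The submitters' processing notes list the build mm10 and the tools HISAT2, StringTie and FastQC, with no version. No annotation release or use of strand is stated. The depth is unknown, so no counting interval was computed.

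The 13174 genes with at least 0.5 FPKM in 5 or more libraries entered a limma fit (version 3.58.1, R 4.3.3, with a mean-variance trend) of log2(FPKM + 1), which had 4 group means, a two-sided test and Benjamini-Hochberg adjustment over all tested genes. The fit was tested on simulated data. The 7 markers and all lists were chosen with earlier results of these data known. The text names all markers, from each list the genes past an adjusted p of 0.05 or else up to 2 with the smallest p in females, and the 10 genes most like and 5 least like the markers by correlation, with 3 for each marker. C1ql3, Jup, Pkp2, Maml2 and Mpped1 fall outside that rule and were chosen after their values were seen. GC content and overlapping genes come from GENCODE M21, whose coordinates for the 7 genes equal the deposited ones.

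Same-numbered KO and WT libraries did not deviate together over all genes (correlations of -0.03 to 0.06 in females and -0.07 to 0.07 in males). The replicate numbers thus gave no sign of pairing, though such correlations cannot exclude a pairing that affects few genes. Alternatives were rescaling, pseudocount, filters, fits of the compared groups only, the replicate block, GC correction, and leaving out libraries.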

Additional observations from a re-analysis of the deposited data

Results flagged for a closer look

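Of 28 sets of 5 libraries (7 markers in 4 groups), 2 held a library far from the others, and chance alone sets apart about 1 in 20. Tdo2 was at 1.93 FPKM in male WT replicate 3, against 2.32 in the nearest male WT library. Trpc6 was at 4.53 FPKM in male KO replicate 3, against 4.05 in the nearest male KO library.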

How the results depend on the processing

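In males 0 markers passed limma as reported and in all 29 alternatives, and the markers' median difference ran from -0.05 to -0.02 over the 9 settings other than single libraries and from -0.07 to 0.02 with single libraries left out. In females the median ran from -0.29 to -0.16 and from -0.30 to -0.20. The female Tdo2 difference went from -0.31 to -0.45 with a pseudocount of 0.1. With the GC trend taken out, female C1ql2 went from -0.28 to -0.37 and female Dsp from -0.45 to -0.46, and the other female marker differences moved toward 0. The male Tdo2 difference turned to 0.00236 when libraries were scaled by upper quartile and to 0.000909 when the GC trend was taken out; with single libraries left out it ran from -0.0446 to 0.0189, that of C1ql2 from -0.0941 to 0.0355, that of Prox1 from 0.02 (without male WT replicate 5) to 0.08 (without male WT replicate 3) and that of Stxbp6 from 0.04 (without male KO replicate 2) to 0.08. Calls over all genes, 438 in females, became 91 when the groups of the other sex were left out, 76 without the Ttr libraries, 8 without the Prl libraries and 231 after removal of the GC trend, and ran from 176 to 525 without single libraries, with 208, 180 and 258 without female KO replicate 2, 3 and 5 and 211, 176 and 217 without female WT replicate 3, 4 and 5. In males 6 calls became 3 with a filter of 2 FPKM and 12 without the Ttr libraries, and ran from 6 to 11 without single libraries, with 10 without female WT replicate 4 or male WT replicate 3 and 11 without male WT replicate 2. Leaving out each library in turn for the marker pair correlations was chosen after seeing the data. With the replicate number as a block, for which no sign of pairing was seen, 320 genes passed in females, 8 in males and 0 markers in males. In that fit the female calls of Vamp2, Rfx3 and Prkcd ended. The same 3 calls ended with the GC trend taken out (limma adjusted p = 0.0603 for Vamp2, 0.084 for Rfx3 and 0.0529 for Prkcd).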
